A study of Homo sapiens with 4 samples.

Results

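Among the circular RNA calls of these libraries, 58 circles lay on the mitochondrial genome, of 190152 circles with at least 1 count in all. They were taken by position alone, as every back splice on the mitochondrial chromosome with at least 1 count summed over the 4 libraries, and 3 further mitochondrial calls with 0 counts in all libraries were left out. The cells were of MDA-MB-468, an established line from human breast cancer, in a radioresistant derivative that had received a total of 50 Gy in fractions. There were 2 control replicates, labelled shCtrl with a WT genotype, and 2 replicates of a stable shHNRNPL knockdown, labelled with an HNRNPL knockdown genotype. The series describes the replicates as biological, and the protocols name 1 knockdown hairpin, shHNRNPL-1, so another hairpin is not represented here. All 4 libraries share the cell line, its radioresistance and the growth medium, and no unirradiated cells were compared. Circular RNA was read by nanopore sequencing after Induro reverse transcription of total RNA from random primers, amplification with phi29 polymerase and debranching with T7 endonuclease I. The stated purpose of the series was to find circular RNAs that depend on HNRNPL, an RNA-binding protein of the nucleus that takes part in splicing.

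The human mitochondrial genome is a small DNA circle that encodes ribosomal RNAs, transfer RNAs and subunits of respiratory complexes I, III, IV and V. Both strands are transcribed into long RNAs, which are cut mainly at the transfer RNAs that lie between the other genes. Its genes hold no introns, so a nuclear spliceosome is not known to act on these transcripts. Mitochondrial ribosomal RNA is among the most abundant RNA of a cell, and the antisense RNA of the opposite strand is mostly degraded.

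Control 1 stood apart from the other libraries before any comparison of groups. Total counts were 472428 and 556578 in controls 1 and 2, and 282737 and 390547 in knockdowns 1 and 2. Circles called antisense to a nuclear gene held 6.23% of the counts of control 1, against 2.32% to 2.69% in the other 3 libraries. Nuclear intron circles held 19.7% of control 1, against 9.93% to 10.6% in the others. No circle with counts named HNRNPL, so the knockdown rests on the labels. Of the 6 epithelial genes set as markers, EPCAM, CDH1 and EGFR had circles in every library, while KRT8, KRT18 and KRT19 had 0 circle counts. The immune, endothelial and stromal genes PTPRC, PECAM1, COL1A1 and COL3A1 also had 0.

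All 58 circles came from 1 side of the mitochondrial gene map. The lowest start was position 34 and the highest end position 8141 of the mitochondrial chromosome, in the coordinates of the deposited table, and the last annotated gene ends at 16023. The RefSeq table of GRCh38.p14 gives 37 mitochondrial genes there. The 58 spans touched 19 of them, MT-ND2, MT-TI, MT-TQ and MT-TM only in a part that both listed forms of 1 circle skip. The other 18 genes lay wholly beyond the highest end and had no circle with counts: 9 protein genes, among them all of complex V, the complex III gene MT-CYB and MT-CO3, and 9 transfer RNA genes. The deposited table also lists a circle at 12337 to 14720, over MT-ND5 and MT-ND6, which had 0 counts in all 4 libraries. Of these 0-count calls, the other two lay at 5586 to 6703 and at 6893 to 7307.

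Each circle was given to the annotated gene that covers most of its span. The ribosomal RNA genes held 25 circles and 4886 of the 5128 mitochondrial counts, or 95.3%. MT-RNR1, the RNA of the small mitochondrial ribosomal subunit, held 10 circles with 4719 counts, and MT-RNR2, the RNA of the large subunit, held 15 circles with 167 counts. Complex IV, which reduces oxygen at the end of the respiratory chain, held more circles but far fewer counts, with 29 circles and 220 counts. Of these, 28 lay mainly in MT-CO1, its catalytic subunit, and 1 with 2 counts in MT-CO2. Complex I was given 2 circles and 11 counts by span, of which the 1 circle with 8 counts in MT-ND1 lay within its gene, and the 1 with 3 counts given to MT-ND2 has no listed block there. A transfer RNA gene was the leading gene of 1 circle, and 1 circle lay in the part with no gene, the control region where transcription and replication start.

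**Figure D1:**
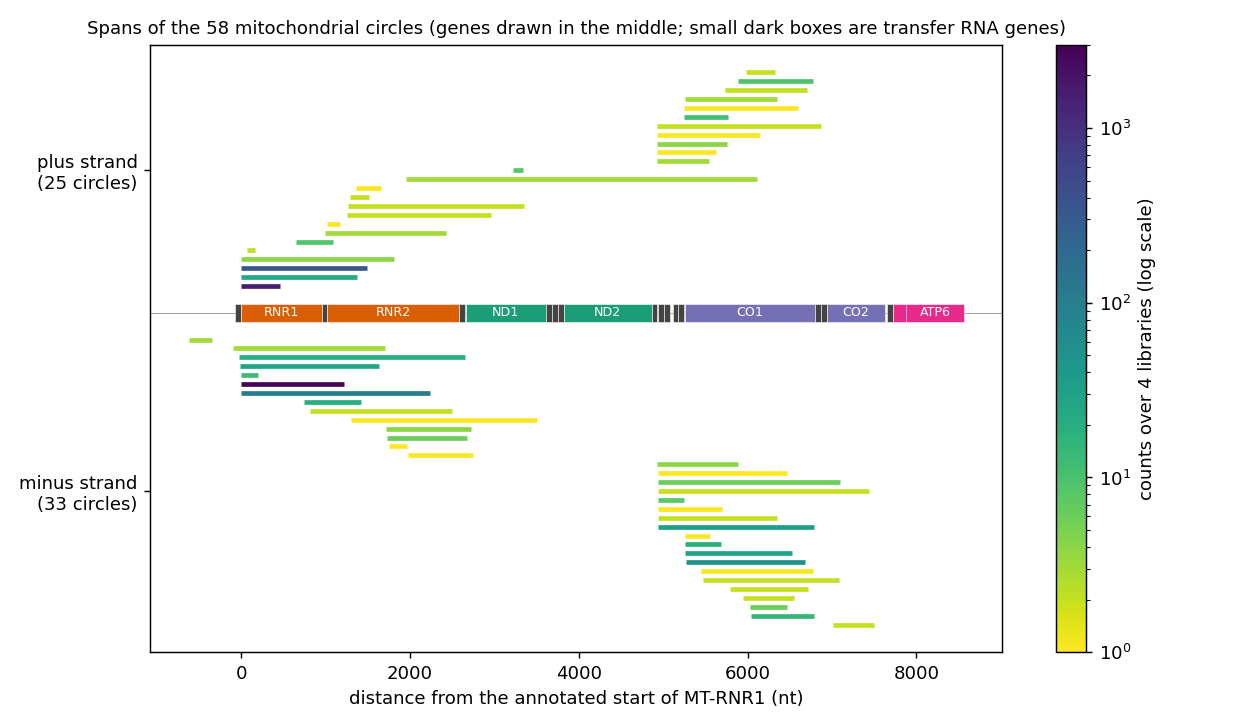
Spans of the 58 mitochondrial circles by strand, with the distance from the annotated start of MT-RNR1 in nt on the horizontal axis and the genes drawn as boxes between the strands. Colour gives the counts summed over 4 libraries on a log scale: the darkest bars begin at the start of MT-RNR1 on both strands, and a second group of paler bars lies over MT-CO1.

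The circle with the most counts, called A here, ran from 647 to 1864 on the minus strand and was 1218 nt long. Its low-coordinate end is the last base of MT-TF, the transfer RNA gene before MT-RNR1. Circle A covers all of MT-RNR1 and MT-TV, and its high-coordinate end lies 193 nt past the start of MT-RNR2. The deposited table calls it antisense. A had 2367 and 6 counts in controls 1 and 2, and 140 and 237 in knockdowns 1 and 2. Circle A alone held 53.6% of all mitochondrial counts, so by its listed strand the leading mitochondrial circle was antisense to the ribosomal RNA. Strands here and below are those of the deposited table. Whether the reads keep the strand of the RNA was not tested.

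Circle B ran from 648 to 1112 on the plus strand, the strand of the ribosomal RNA itself, and was 465 nt long. It begins at the annotated first base of MT-RNR1 and ends within the gene, and the table calls it an exon circle. B had 1372 and 0 counts in the controls, against 62 and 114 in the knockdowns. Its junction carries the bases AACA in the field that the table names as equivalent sequence, which at 4 bases was the longest such entry of any mitochondrial circle. The definition of that field is not given in the sources used here.

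Circle C ran from 653 to 2139 on the plus strand over MT-RNR1, MT-TV and the beginning of MT-RNR2, and was 1487 nt long. C had 293 and 0 counts in the controls, against 22 and 25 in the knockdowns. The table lists it in 2 isoforms, the whole span or a form that joins 653 to 1605 with 1933 to 2139 and so skips 327 nt. Circle D ran from 647 to 2883 on the minus strand and was 2237 nt long, sharing its low end with A. D had 79 and 1 counts in the controls, against 5 and 17 in the knockdowns. Its second isoform joins 647 to 732 with 1671 to 2883, and the low-coordinate end of the latter block is the annotated first base of MT-RNR2. The table gives no count per isoform. A, B, C and D together held 4740 counts, or 92.4% of the mitochondrial total.

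The other 6 of the 10 leading circles had between 20 and 51 counts each, and the 10 together held 96.0%. The circle from 5916 to 7327 on the minus strand, antisense to MT-CO1, had 44 and 0 counts in the controls, against 6 and 1 in the knockdowns. A minus-strand circle from 5587 to 7440 had 34 counts in control 1 and 0 in the other 3 libraries. It spans from the low-coordinate edge of MT-TA to 5 nt before the end of MT-CO1. The circle from 5902 to 7169 on the minus strand had 24 and 0 counts in the controls, against 1 and 4 in the knockdowns, with a second isoform that skips 425 nt. These leading circles outside the ribosomal RNA genes all lay on the minus strand, opposite to MT-CO1. In the ribosomal RNA genes, the minus-strand circle from 638 to 2283 had 22 and 0 counts in the controls, against 2 and 3 in the knockdowns. The plus-strand circle from 648 to 2018, which shares its first base with B, had 17 and 0 counts in the controls, against 1 and 6 in the knockdowns. The minus-strand circle from 1389 to 2069 had 17 and 0 counts in the controls, against 0 and 3 in the knockdowns. In each of the 6, control 1 had the highest count and control 2 had 0.

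A further 5 circles reached 10 counts, and control 1 held all of their counts but 1. They were the minus-strand circles from 5902 to 6335 with 20 counts in control 1, from 625 to 3297 with 19, from 6687 to 7440 with 14 and from 647 to 852 with 12, and the plus-strand circle from 5896 to 6411 with 11. Knockdown 2 had 1 count of the circle from 6687 to 7440, and all other values of these circles outside control 1 were 0. The circle from 625 to 3297, at 2673 nt the longest of the 58, covers both ribosomal RNA genes. Its high-coordinate end lies 7 nt before the end of MT-TL1.

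The remaining 43 circles had under 10 counts each: 31 had 2 to 9 and 12 had 1 count. Together they held 126 counts, or 2.46% of the mitochondrial total. A minus-strand circle from 5587 to 5891 had 8 counts, all in control 1. It matched the annotated edges at both ends, from the low-coordinate edge of MT-TA to the high-coordinate edge of MT-TY. The table's splice-site field lists 2 offsets for each circle, here 7 and 6, whose meaning was not established. The span holds MT-TA, MT-TN, MT-TC and MT-TY, a cluster of transfer RNAs encoded on the minus strand. By its listed strand, this circle was sense to its genes. In MT-ND1, a complex I subunit, the plus-strand circle from 3873 to 3986 had 8 counts, all in control 1. The control region circle, from 34 to 308 on the minus strand, had 2 counts in control 1 and 1 in knockdown 1. A plus-strand circle from 2597 to 6754 had 3 counts in control 1 and was the only one whose span exceeded its stated length, 670 nt. Both of its isoforms begin with 2597 to 3229, which ends at the last base of MT-RNR2, and continue within MT-CO1 after a skip of 3488 or 3400 nt. These 4 circles, and those above beyond the 10 leading ones, were picked out after their values had been seen, and with so few counts each is a description of reads in 1 or 2 libraries.

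Several circles shared an exact end, more often the low-coordinate one. For a plus-strand circle the low-coordinate end is the 5′ side of the RNA, and for a minus-strand circle it is the 3′ side. The low-coordinate end lay within 5 nt of an annotated gene edge in 26 of 58 circles (44.8%), and the high-coordinate end did in 4 (6.90%). For comparison, 3.22% of the 8108 positions between the lowest start and the highest end lie that close to an edge. By counts the asymmetry was wider, with 95.8% of the counts in circles with a low-coordinate end near an edge and 1.15% in circles with a high-coordinate end near one. Both strands shared it, in 13 of 25 plus-strand and 13 of 33 minus-strand circles for the low-coordinate end. Within 10 nt the numbers were 28 and 5 circles. Circles that share an end are not independent of each other, so no test was made.

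The shared low-coordinate ends lay at boundaries between genes. At the boundary of MT-TF and MT-RNR1, 3 minus-strand circles had their low-coordinate end at 647 and 2 plus-strand circles at 648, with 2864 and 1572 counts. There were 2 more plus-strand circles that began at 653, with 344 counts. At 5580, the base after the transfer RNA gene MT-TW, 5 plus-strand circles began, with 11 counts in all. On the minus strand, 3 circles had their low-coordinate end at 5584 and 4 at 5587, the low-coordinate edge of MT-TA, with 9 and 45 counts. Near the start of MT-CO1 at 5904, 2 plus-strand circles had their low-coordinate end at 5896 and 3 minus-strand circles at 5902. Of the high-coordinate ends, 7115, 7427 and 7440 were each shared by 2 circles. In the splice-site field, the first offset was 0 for all circles at 5580, 4 for those at 5584 and 7 for those at 5587. At 647 the first offset was 0, -3 and -1. Whether these ends trace to fewer positions, and whether the caller moves ends toward annotated edges, was not tested.

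**Figure D2:**
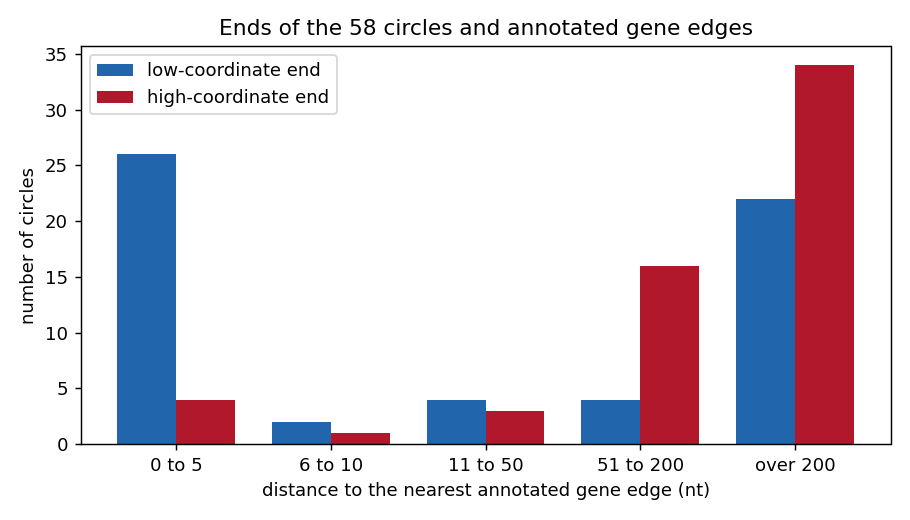
Number of the 58 circles (vertical axis) by the distance of each end to the nearest annotated gene edge, in nt (horizontal axis), for the low-coordinate and the high-coordinate end. The low-coordinate ends fall at 0 to 5 nt in 26 circles and beyond 200 nt in 22, while the high-coordinate ends fall at 0 to 5 nt in 4 and beyond 200 nt in 34.

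By their listed strand, circles came from both strands, and the minus strand held more of the counts. There were 25 plus-strand circles with 1988 counts (38.8%) and 33 minus-strand circles with 3140. In the table's own classes, 23 circles with 3077 counts were antisense, 19 with 1973 counts were exon circles, 15 with 75 counts were intron circles and 1 was intergenic. Mitochondrial genes have no introns. Spans of the intron class passed beyond a gene named for them, as did some exon circles, such as that from 1900 to 3614. The rule behind the class was not examined. Over MT-RNR1 the plus strand had 6 circles with 1927 counts and the minus strand 4 with 2792. Over MT-CO1 the plus strand had 11 circles with 39 counts and the minus strand 17 with 179. MT-RNR2 leaned further to the minus strand, with 9 circles and 156 counts against 6 circles and 11 counts.

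Mitochondrial circles were 104 to 2673 nt long, with a median of 955 nt over the 58 circles. The median was 1349 nt over the 190094 nuclear circles, 1248 nt over those called exon, 1374 nt over antisense and 1561 nt over intron circles. Of the 58, 57 had a length equal to their span, that is, no part skipped in the first listed form. The splice-site field carried an asterisk, whose meaning is not given in the sources used here, in 56 of 58 (96.6%). The same mark stood on 64.9% of nuclear circles, on 41.6% of the nuclear exon circles, on 95.7% of the nuclear intron circles and on 100% of the nuclear antisense circles. The motif AG-GT stood at 45 of the 58 (77.6%), against 85.1% of all nuclear, 90.1% of exon, 78.3% of antisense and 77.4% of intron circles. Circle A was instead given AC-AT, and 7 such circles held 54.1% of the mitochondrial counts. Bases in the equivalent-sequence field were listed for 43.1% of the mitochondrial circles, against 63.8% of all nuclear, 72.1% of exon, 42.2% of antisense and 55.2% of intron circles. In the asterisk, the motif and the equivalent-sequence field the mitochondrial circles lay nearer to the nuclear antisense and intron circles than to the exon circles, while in median length the exon circles were the nearest. Since 23 of the 58 were themselves classed antisense and 15 intron, this likeness may follow from their classes. It was not examined within a class. These are descriptions with no test.

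Control 1 held 4456 of the 5128 mitochondrial counts, or 86.9%. Control 2 had 10, knockdown 1 had 243 and knockdown 2 had 419. Per 100000 circle counts of each library, these were 943 and 1.80 in the controls, against 85.9 and 107 in the knockdowns. The controls were thus the highest and the lowest library, 525-fold apart, with both knockdowns between them. As a share of all circle counts, control 1 had 0.943% (Wilson 95% interval 0.916% to 0.971%) and control 2 had 0.00180% (0.000976% to 0.00331%). Knockdown 1 had 0.0859% (0.0758% to 0.0974%) and knockdown 2 had 0.107% (0.0975% to 0.118%). Here and below, the intervals treat each count as independent and do not cover the spread between replicates. Amplified copies carry no molecular identifiers, so the intervals can be too narrow even for counting error.

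The mean share was 0.473% ± 0.666 (SD, n = 2) in the controls and 0.0966% ± 0.0151 (SD, n = 2) in the knockdowns, a difference of -0.376 percentage points. By an exact two-sided permutation test over the 4 libraries p = 1, in a design whose smallest possible p is 0.333. The direction rested on 1 library: without control 1 the knockdown mean was 0.0948 percentage points higher, or 53.8-fold, and without control 2 it was 0.847 points lower. A difference between the groups was therefore not separable from the spread between the controls. In bulk RNA, fewer cells of a type and less RNA per cell cannot be told apart, and a share of circle counts also moves with the other circles. The 0.635, 0.539, 1.06 and 0.768 per 100000 that a count of 0 allows in the 4 libraries (3 counts, in the order of the totals above) lay below the mitochondrial level of every library.

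**Figure D3:**
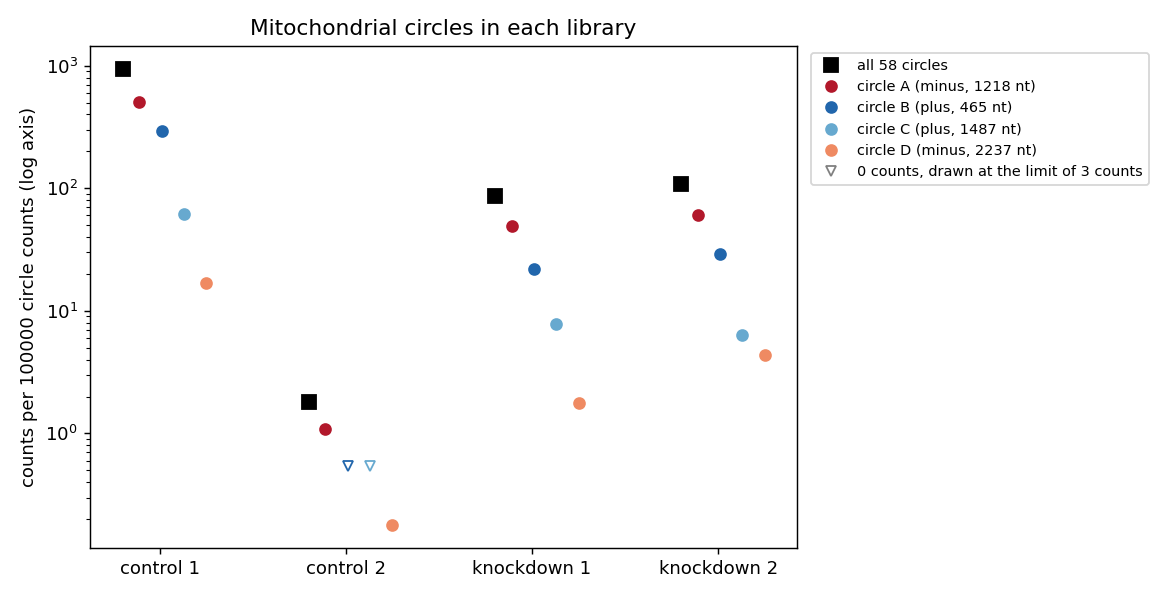
Counts per 100000 circle counts on a log axis for all 58 mitochondrial circles and for circles A to D, in each of the 4 libraries; open triangles mark 0 counts, drawn at the limit of 3 counts. Control 1 is highest at 943, control 2 lowest at 1.80, and the knockdowns lie between at 85.9 and 107.

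Individual circles followed the total. Circle A stood at 501 and 1.08 per 100000 in the controls, against 49.5 and 60.7 in the knockdowns. Circle B stood at 290 and 0 in the controls, against 21.9 and 29.2 in the knockdowns. Circle C stood at 62.0 and 0, and at 7.78 and 6.40, in the same order. Circle D was the least abundant of them, at 16.7 and 0.180 in the controls, against 1.77 and 4.35 in the knockdowns. In each of A to D both knockdowns lay between the controls, so the groups overlapped. The level of control 1 over the mean of the knockdowns was 9.09-fold for A, 11.4-fold for B, 8.75-fold for C and 5.46-fold for D.

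Within the mitochondrial counts, the make-up of the libraries was more alike than their level. Circle A held 53.1% of them in control 1 (Wilson 95% interval 51.7% to 54.6%), 57.6% in knockdown 1 (51.3% to 63.7%) and 56.6% in knockdown 2 (51.8% to 61.2%). Circle B held 30.8% (29.5% to 32.2%), 25.5% (20.4% to 31.3%) and 27.2% (23.2% to 31.7%) in these libraries. Among circles A to D, the order was A, B, C and D in all 3. In knockdown 1 the circle from 5916 to 7327, with 6 counts, stood above D with 5. Neighbours among A to D had intervals that did not overlap, except C and D in knockdown 2, at 5.97% (4.07% to 8.66%) and 4.06% (2.55% to 6.40%). In control 2 the 10 counts were 6 of A, 1 of D, 2 of the plus-strand circle from 1900 to 3614 and 1 of the plus-strand circle from 2005 to 2303. With so few counts the share of A there, 60%, had an interval of 31.3% to 83.2%, and a share of B up to 27.8% was within the interval of a count of 0.

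**Figure D4:**
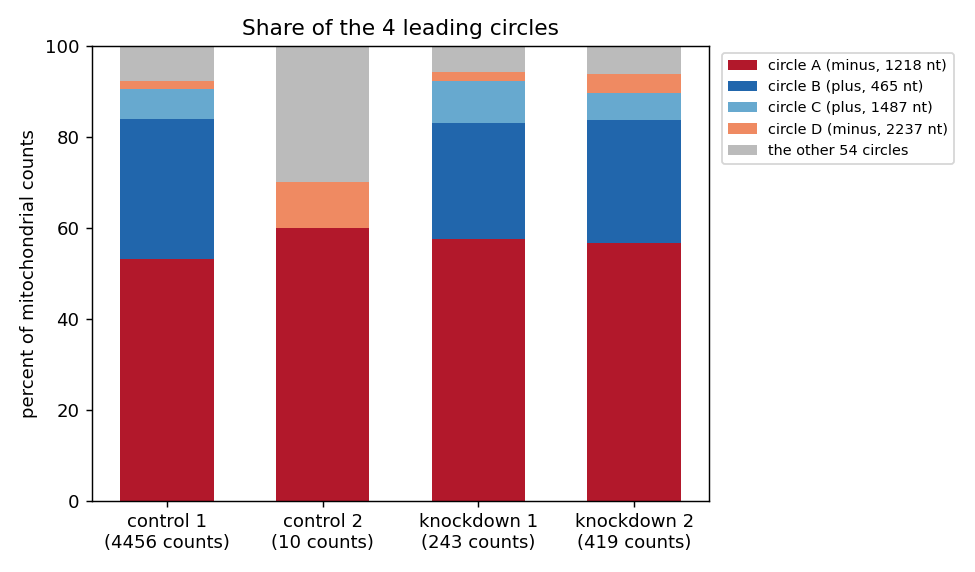
Percent of the mitochondrial counts of each library (vertical axis, from 0 to 100) held by circles A to D and by the other 54 circles, with the number of counts under each bar. Circle A takes 53.1% to 60% in the 4 libraries, and control 2 rests on 10 counts.

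The share of the plus strand was 39.2% and 30% in the controls, against 35.8% and 36.0% in the knockdowns, with means of 34.6% ± 6.51 and 35.9% ± 0.167 (SD, n = 2 each). The share of the ribosomal RNA genes was 95.0% and 100% in the controls, against 95.9% and 97.6% in the knockdowns, with means of 97.5% ± 3.52 and 96.7% ± 1.22. The count-weighted median length was 1218 nt in every library, the length of circle A. The exact permutation p was 1 for each of these 3 comparisons. The knockdown values of both shares lay within the range of the controls.

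Most circles were seen in 1 library. Control 1 held 53 of the 58, control 2 held 4, knockdown 1 held 12 and knockdown 2 held 16. Of all 58, 42 had counts in 1 library, 7 in 2, 7 in 3 and 2, A and D, in all 4. Control 1 alone held 38 of those seen once, and 5 circles with 8 counts in all were not seen in it. Of the circles of knockdown 1, 11 were also in control 1, which is 91.7% of its own and 20.8% of those of control 1. For knockdown 2 it was 13, which is 81.3% of its own and 24.5% of those of control 1. The number of circles moved with the number of counts: drawn down to 243 mitochondrial counts, control 1 would be expected to show 16.8 circles and knockdown 2 12.9, against 12 in knockdown 1. Over the 15 circles that reached 10 counts, log2(count + 1) correlated at r = 0.966 and 0.912 between control 1 and the knockdowns and at 0.927 between the knockdowns. With control 2, which had 7 counts on these circles, r was 0.635 to 0.651. Circles of a library share its depth and its amplification, so these are descriptions.

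The fit across all circles asked whether any circle differed between knockdown and control. It used edgeR's quasi-likelihood test on the 21576 circles that reached 10 counts summed over libraries, with Benjamini-Hochberg adjustment and a threshold of 0.05, and called 0 circles (0% of those tested), while 2895 (13.4%) had an unadjusted p under 0.05. That 0 depends on the setting. DESeq2 called 1085 of the same circles (5.03%). A filter of at least 5 counts in each of 2 libraries left 1404 of 11711 called (12.0%). In both, 0 mitochondrial circles were called, but only 6 entered under that filter. DESeq2 gave no adjusted p for the circles from 5896 to 6411, 647 to 852 and 6687 to 7440. Of the 15 mitochondrial circles that entered at the minimum of 10 counts, 4 reached it without control 1 and the others only with it. The 15 therefore do not stand for the 58. None of the 15 was called, and 0 had an unadjusted p under 0.05. All 15 fitted log2 fold changes were below 0, with a median of -2.45, against -0.39 over all circles tested. For the circles other than A to D, which passed the filter only through control 1, the filter favoured a value below 0. The shared sign and the median are therefore not a result about mitochondrial circles. With the 5 circles that had 0 counts in both knockdowns set at their bound, the median was -1.96. For circle A the log2 fold change was -2.45 ± 1.91 (SE), with an edgeR adjusted p of 0.530, and for B it was -2.76 ± 2.09, with an adjusted p of 0.516. For C it was -2.39 ± 1.82 (adjusted p = 0.521), and for D it was -1.62 ± 1.53 (adjusted p = 0.610). Knockdown and control ranges per 100000 overlapped or touched in all 15, while they did not overlap for 9936 of the 21576 circles tested (46.1%). All of the 15 but A and D had 0 counts in control 2, so a knockdown range below their controls could not occur. Those other than A to D had also passed the filter only through control 1. The contrast is therefore not a result about mitochondrial circles.

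The smallest p-values belonged to circles of 1 library. The circles from 5587 to 7440, 5902 to 6335 and 625 to 3297 had edgeR p-values of 0.0811, 0.0916 and 0.0932, each with an adjusted p of 0.430. Each had 0 counts in control 2 and in both knockdowns. Against the limit of 3 counts per knockdown library, the control means were at least 3.93-, 2.31- and 2.20-fold higher. These bounds rest on control 1 alone.

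The calls of single circles turned with the control library used. Without control 1, 4 mitochondrial circles were tested and all 4 were called higher in the knockdown, in a fit that called 14.7% of all circles tested higher, with log2 fold changes of 5.81 for A, 9.81 for B, 7.93 for C and 4.11 for D. Without control 2, all 15 were called lower, in a fit that called 22.8% of all circles tested lower. Of the 15, those other than A to D had passed the filter only through control 1, which is then the lone control, so their direction followed from the filter. B and C had 0 counts in control 2, so their values of 9.81 and 7.93 without control 1 are not measured sizes. Against the limit there of 0.539 per 100000 (3 counts), the knockdowns stood at 21.9 and 29.2 for B. For C they stood at 7.78 and 6.40. In either fit the lone control is assumed to vary like the knockdown libraries, and the opposite directions show that the calls follow which control was kept. Without a filter on counts, 4 of the 58 were called lower, which were A, B, C and the circle from 5587 to 7440, in a fit that called 69 of 190152 circles (0.0363%) lower.

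Summed per gene, the circles showed the same spread. The sums of mitochondrial genes include circles of both strands, while those of nuclear genes leave out antisense circles. Minus-strand circles held 2792 of 4719 counts for MT-RNR1, 156 of 167 for MT-RNR2 and 179 of 218 for MT-CO1. MT-RNR1 had 868 and 1.08 counts per 100000 in the controls, against 80.3 and 99.1 in the knockdowns, with a log2 fold change of -1.80 ± 1.53 and an edgeR adjusted p of 0.606. MT-RNR2 had 135 and 4 counts in the controls, against 6 and 22 in the knockdowns, with a log2 fold change of -1.41 ± 1.07 and an edgeR adjusted p of 0.560. MT-CO1 had 199 and 0 counts in the controls, against 9 and 10 in the knockdowns, with a log2 fold change of -2.41 ± 1.38 and an edgeR adjusted p of 0.446. None of these 3 genes was called, in a fit that called 87 of 5912 host genes (1.47%), and the other 4 mitochondrial genes with counts were under the minimum of 10. Without control 1 all 3 were called higher, as were 15.6% of all host genes tested, and without control 2 all 3 were called lower, as were 18.8%.

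Control 1, the library with the highest mitochondrial level, stood apart in other features. That library also held the largest share of nuclear antisense circles, 2.32- to 2.68-fold over the other libraries, and of nuclear circles with an asterisk, 46.3% against 24.6% to 26.4%. Nuclear exon circles held 70.5% of control 1 and 84.9% to 85.7% of the others. Control 2 did not mirror this: its nuclear antisense share of 2.69% lay beside the 2.32% and 2.54% of the knockdowns, while its mitochondrial level was 1.80 per 100000 against their 85.9 and 107. Among antisense circles alone, the mitochondrial ones made up 8.26% of the counts in control 1, 0.0468% in control 2, 2.31% in knockdown 1 and 2.61% in knockdown 2. Among exon circles alone they made up 0.517%, 0.000635%, 0.0359% and 0.0452%. The order of the libraries was thus the same within antisense and within exon circles. Among intron circles they made up 0.0785%, 0%, 0% and 0.00512%, and among intergenic circles 0.0391%, 0%, 0.0815% and 0%, where the 1 mitochondrial circle had 3 counts. The part that the make-up of control 1 has in its mitochondrial level was not tested.

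**Figure D5:**
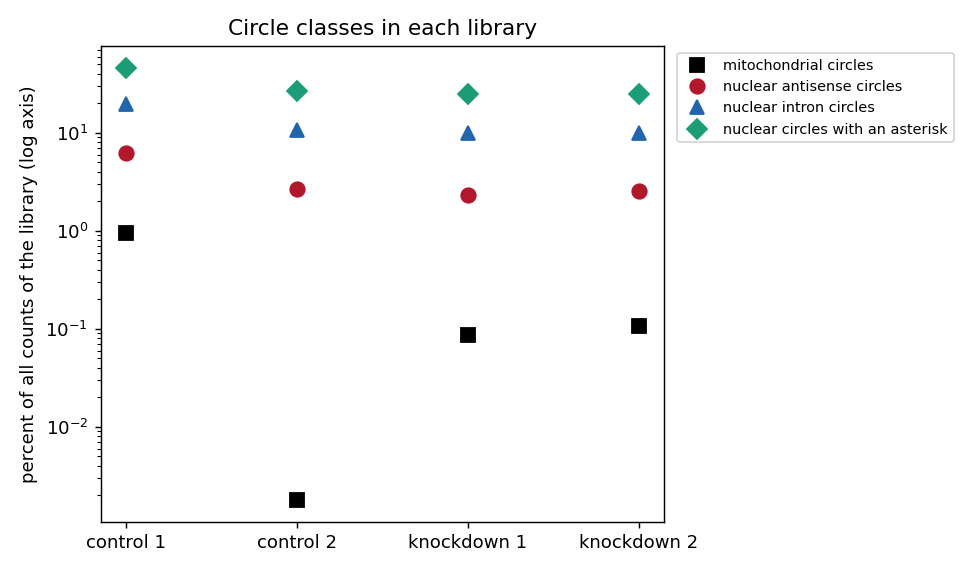
Percent of all counts of each library, on a log axis, held by mitochondrial circles, nuclear antisense circles, nuclear intron circles and nuclear circles whose splice site carries an asterisk. The nuclear classes are highest in control 1 and close together in the other 3 libraries, while the mitochondrial circles fall from 0.943% in control 1 to 0.00180% in control 2.

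The nuclear genome holds copies of mitochondrial genes, from which similar reads could come. There were 58 nuclear circles that named a mitochondrial pseudogene, with 150 and 200 counts in the controls, against 88 and 116 in the knockdowns. Each of them also named another gene, and none named a ribosomal RNA pseudogene. Per 100000 circle counts these were 31.8 and 35.9 in the controls, against 31.1 and 29.7 in the knockdowns, a narrow range beside that of the mitochondrial circles. How the caller placed reads that fit both genomes was not tested.

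Mitochondrial RNA is made, cut and degraded by proteins of nuclear genes, and the circles of 43 such genes were read in the same fit. Of these, 32 had circles that named that gene alone, 25 reached 10 counts and 0 were called, with 8 at an unadjusted p under 0.05, of which 5 were higher and 3 lower. Over all host genes tested, 885 (15.0%) had such a p. The log2 fold changes were above 0 for 12 and below 0 for 13, with a median of -0.25, against -0.27 over all host genes tested. The smallest p belonged to PNPT1, the polynucleotide phosphorylase that degrades mitochondrial RNA. Its circles stood at 6.14 and 5.57 counts per 100000 in the controls, against 18.0 and 14.9 in the knockdowns. The log2 fold change of PNPT1 was 1.79 ± 0.39, with an edgeR adjusted p of 0.0570. TFB2M, a transcription factor of the mitochondrial RNA polymerase, had 23 and 45 counts in the controls, against 48 and 73 in the knockdowns, with a log2 fold change of 1.73 ± 0.44 and an edgeR adjusted p of 0.0982. LACTB2, a mitochondrial endoribonuclease, had 1 and 6 counts in the controls, against 17 and 21 in the knockdowns, with a log2 fold change of 3.30 ± 0.82 and an edgeR adjusted p of 0.0940. None of the 3 passed the threshold, they were picked for their small p, and the values are of circles, not of the genes' messenger RNA. Without control 1, 10 of the 21 listed genes tested were called, against 26.9% of all host genes, and without control 2 it was 14 of 24, against 38.5%. PNPT1, TFB2M and LACTB2 were among them in both fits, where the lone control has no spread of its own. When either knockdown was left out none of the 3 passed, with edgeR adjusted p-values of 0.343 to 0.620.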

How the data were processed

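The authors deposited raw counts, whole numbers per back splice, and a circle length in nt (a measure of another kind) for 4 libraries, each called by CIRI-long per the file headers. DESeq2 and GRCh38.p14 are named in the submitters' processing notes. Versions, base caller, aligner and filters are not given in the sources used here. A deposited table of scaled values was not used. Library totals were 282737 to 556578 counts. Libraries were grouped by their titles.

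Mitochondrial genes and positions came from the RefSeq table of GRCh38.p14, and coordinates are 1-based. Counts were fitted with edgeR 4.0.16 (R 4.3.3) by the quasi-likelihood test with TMM, at least 10 counts over 4 libraries, no covariates, and Benjamini-Hochberg adjustment over all features. DESeq2 1.42.0 was an alternative. SEs were derived from the F statistic. Host genes were summed over nuclear circles that name 1 gene and are not antisense, plus mitochondrial circles by their most-covering gene. Single values per library were compared with exact permutation tests. Named circles were the 10 with the most counts, those in all 4 libraries and the 3 with the smallest p per direction; of the nuclear list, those called or the 3 with the smallest p. Members and lists were chosen with earlier results of these data known. Replicate numbers were taken as names. Circle sequences are not printed, as no mitochondrial sequence was used here.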

Additional observations from a re-analysis of the deposited data

How the results depend on the processing

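With a denominator of exon circles, with circles of at least 2 counts, with library-size scaling, with DESeq2, with at least 5 counts in each of 2 libraries and with the other dispersion method, the mitochondrial results kept their direction and no mitochondrial circle or gene was called. The median of the nuclear list, -0.25, was 0.19 (12 above 0 and 9 below) with at least 5 counts in each of 2 libraries, and 9 were above 0 and 16 below with library-size scaling. Leaving out each replicate moved the difference in mitochondrial share from -0.847 to 0.0948 percentage points, in plus-strand share from -3.29 to 5.92, in ribosomal RNA share from -3.25 to 1.73 (0.104 without knockdown 1) and in median length by 0 nt. The called circles then ranged from 0 to 15, the genes from 0 to 3 and the nuclear list from 0 to 14. Log2 fold changes then ranged from -3.44 to 5.81 for A, -3.75 to 9.81 for B, -3.40 to 7.93 for C, -2.62 to 4.11 for D, -2.66 to 6.55 for MT-RNR1, -2.32 to 2.65 for MT-RNR2 and -3.28 to 6.65 for MT-CO1. The highest values of B, C and MT-CO1 came without control 1. The lone control then had 0 counts of them, so these are not measured sizes. Without a count filter, 4 circles, 2 genes (MT-RNR1 and MT-CO1) and 4 of the nuclear list were called, in fits that called 0.248% of all circles and 3.15% of all host genes. With each circle counted once, the median length was 128.5 nt higher in the knockdowns. With the replicate number as a block, 2 circles (5587 to 7440 and 5902 to 6335) and 3 of the nuclear list were called, beside 7.66% of all circles and 5.24% of all host genes, and the log2 fold changes of A, B and MT-RNR1 turned to 0.63, 0.34 and 1.24. Within number 2 the share difference was 0.105, and within number 1 it was -3.40 for the plus strand and 0.867 for ribosomal RNA. The cause of these changes was not tested. The numbers did not show that they pair the libraries: the deviations correlated at 0.0861 between controls and knockdowns, over 4944 circles. The 10 mitochondrial counts of control 2, in the library with the most counts, limit the precision of every share within it.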
